A study of Mus musculus with 2 samples.

Results

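Collagens are the main structural proteins of cartilage, and each is built from 3 chains wound into a triple helix. The collagen chain genes were read in mouse superficial zone cells, the flattened chondrocytes at the surface of articular cartilage, on 1 array of cells given retinoic acid and 1 array of control cells. The members were all probe sets whose gene symbol on the platform is Col, a number, a and a number. That gave 82 of the array's 45101 probe sets and 42 of its 18193 named genes. Of the 42 genes, 29 exceeded the median signal of each array, 2 exceeded that of the control array only and 11 exceeded neither. The chain genes Col6a6, Col21a1 and Col28a1 were not analysed here.

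Both cultures were of superficial zone cells from the joints of the femur and tibia of ICR mice, 4 days after birth, in DMEM with 10% serum. The retinoic acid culture (n = 1) had 10 μM retinoic acid, the active form of vitamin A, for 24 h, and the control culture (n = 1) had none; the labels name no vehicle. RNA of each culture went to 1 Affymetrix Mouse Genome 430 2.0 array, and the comparison asks which genes differ in these cells after retinoic acid. With 1 array per group there is no replicate check and no p-value, the precision of each value is limited by there being only 2 arrays, and a fold says how these 2 arrays differ. Whether the cultures shared a cell preparation is not in the labels. In RNA from a whole culture, fewer cells of a type and less RNA per cell cannot be told apart.

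The fibrillar collagens (types I, II, III, V, XI, XXIV and XXVII) form the load-bearing fibrils, of type I in most connective tissue and of type II in cartilage. In cartilage, type XI chains sit inside the type II fibril and type IX chains coat it, while type X is made by hypertrophic chondrocytes. The fibril-associated collagens with interrupted helices (FACIT) bind to fibril surfaces. Types IV and VIII form networks in basement membranes and beneath some cell layers, and type VI forms beaded filaments around cells, in cartilage close to the chondrocyte. The cartilage chains are given below as a class of their own, taken out of the fibrillar, FACIT and network classes.

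Values are MAS5 signals, the linear brightness of a probe set in arbitrary units. A gene is represented by its brightest probe set. A fold is the ratio of the signals, retinoic acid over control, among genes above the array's median (29.7 on the retinoic acid array, 26.5 on the control array). For a gene above it on 1 array only, the fold is a bound to the other array's median. The scatter of the log2 ratio between probe sets of the same gene was an SD of 0.30 over all 4993 genes with several such probe sets and 0.27 over the 16 such collagen genes. That scatter holds no difference between cultures. Signals above 8000 are named as possibly saturated.

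Most collagen chains had a lower signal with retinoic acid, and the size differed by class. Of the 31 measured collagen genes, 7 were at least 2-fold lower with retinoic acid, against 4.40% of all 11733 measured genes. At least 2-fold higher were 2 of 31, against 6.62% of all genes. The shares of the collagens were 22.6% lower and 6.45% higher. Among the 19 collagens whose geometric mean signal over both arrays was above 500, 4 (21.1%) were lower by 2-fold or more, against 3.04% of 3418 genes that bright, and 1 (5.26%) was higher, against 5.41%. At 1.5-fold, 13 were lower (11.6% of all genes) and 4 higher (14.4% of all genes), and 14 lay within 1.5-fold. The median log2 ratio was −0.28 over the collagens and 0.01 over all measured genes. Of the collagens 24 were below 0, Col15a1 and Col22a1 as bounds, and 7 above it. Of all 11733 measured genes 5754 were below 0 and 5979 above it. The 7 lower genes were Col27a1, Col9a3, Col11a2, Col9a2, Col8a2, Col5a3 and Col16a1, and the 2 higher ones were Col10a1 and Col8a1. The number of lower genes rests on the probe set that stands for each gene. It was 11 when the dimmest probe set above the median signal was taken, which added Col9a1, Col5a1, Col6a2 and Col14a1.

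**Figure D1:**
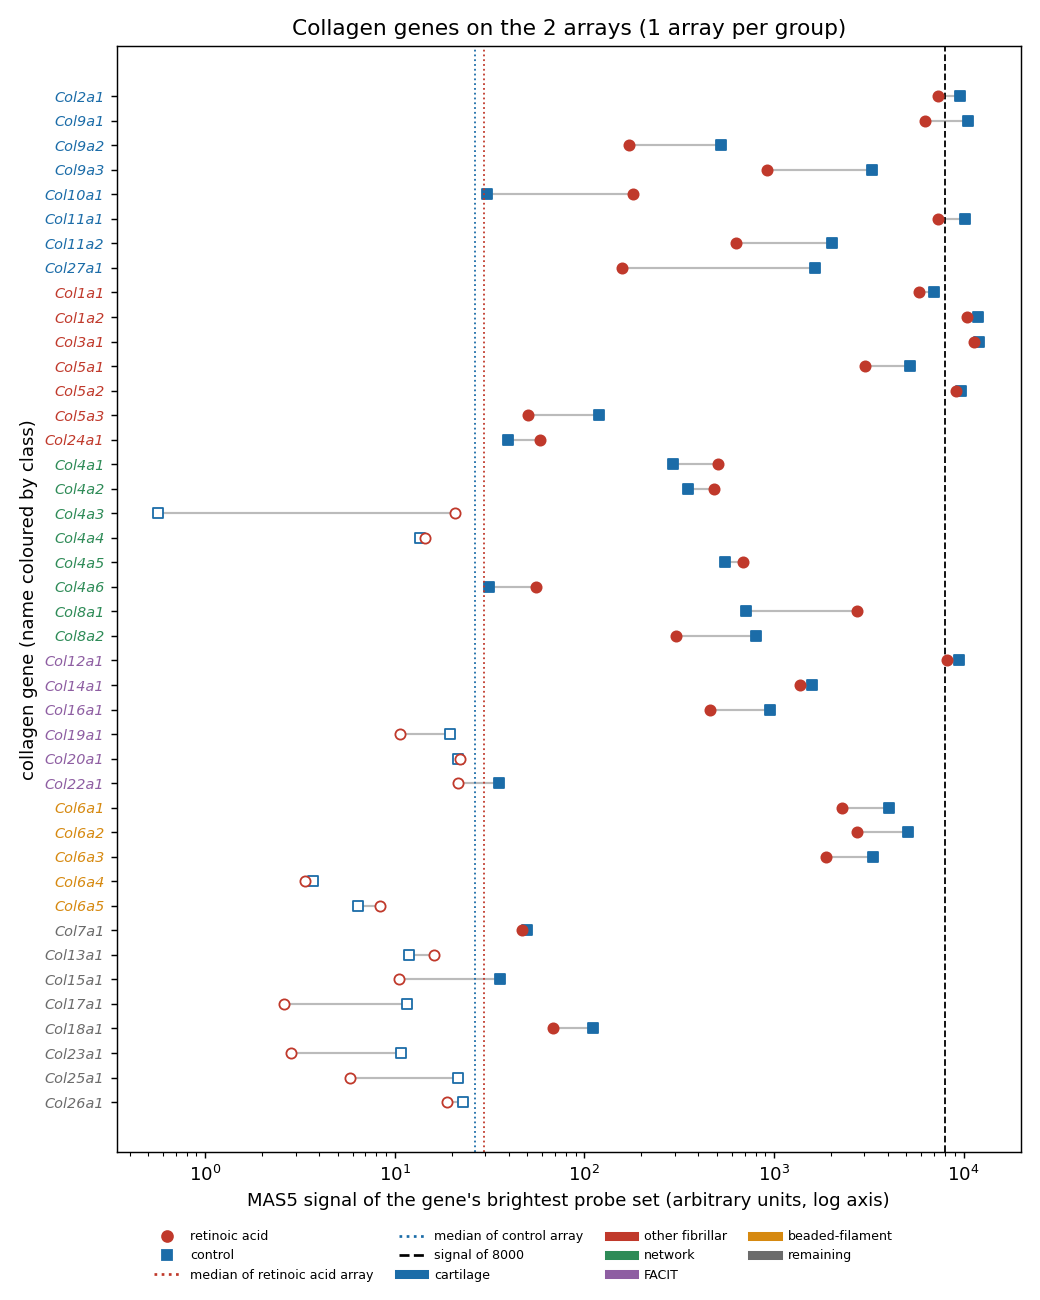
Signal of each collagen gene's brightest probe set on the retinoic acid array (red circles) and the control array (blue squares), on a log axis in arbitrary units, with 1 array per group and gene names coloured by class. Open symbols lie at or below that array's median (dotted lines), and the dashed line marks 8000. The red circle lies far left of the blue square for Col27a1 (158 with retinoic acid, 1641 in control) and far right of it for Col8a1 (2739 with retinoic acid, 714 in control).

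Cartilage collagens had the lowest median of the classes, and their folds were far apart. All 8 were measured, 4 were lower by 2-fold or more and 1 was higher by that much, and the median log2 ratio was −1.19. Col27a1, which encodes a fibrillar chain of cartilage, had a signal of 158 with retinoic acid and 1641 in control, 10.4-fold lower. Its second probe set gave 91.3 with retinoic acid and 1193 in control, a log2 ratio of −3.71 beside −3.37 for the first. In the order of all 11733 measured genes from the lowest ratio up, Col27a1 stood at rank 17.

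Type II collagen, the main fibril of cartilage, is made of Col2a1 chains, and type XI of Col11a1, Col11a2 and Col2a1 chains. Col2a1 had 7366 with retinoic acid and 9538 in control, 1.29-fold lower, from a control signal above 8000 and with no other probe set to compare. Col11a1 had 7313 with retinoic acid and 10236 in control, 1.40-fold lower, and its second probe set gave 6192 with retinoic acid and 8768 in control, a log2 ratio of −0.50. Both probe sets of Col11a1 were above 8000 in control. Col11a2 had 634 with retinoic acid and 2013 in control, 3.18-fold lower, with 1 probe set. Within type XI the 3 chains thus spanned 1.29 on the log2 scale, the 2 with possibly saturated signals having the ratios nearer to 0.

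Type IX collagen, the FACIT of the cartilage fibril, is made of Col9a1, Col9a2 and Col9a3 chains, and all 3 were lower with retinoic acid. Col9a3 had 917 with retinoic acid and 3294 in control, 3.59-fold lower, and its next probe set gave a log2 ratio of −1.60 beside −1.84. Col9a2 had 171 with retinoic acid and 527 in control, 3.08-fold lower. Col9a1 had 6259 with retinoic acid and 10547 in control, 1.68-fold lower, from a control signal above 8000. Its dimmer probe set gave 1440 with retinoic acid and 3821 in control, a log2 ratio of −1.41, nearer to those of its partners.

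The sequences upstream of Col27a1, Col11a2 and Col9a2 are shown because these cartilage chains had some of the lowest ratios among the collagens. They are the 250 bases before the transcript start in RefSeq (GRCm38.p6), 5′ to 3′ on the gene's strand. Col27a1 lies at chr4:63215162-63215411, plus strand, Col11a2 at chr17:34038888-34039137, plus strand, and Col9a2 at chr4:121039316-121039565, plus strand. Capitals mark the GC box (GGGCGG on either strand) and, in Col11a2, TATAAA.
Col27a1: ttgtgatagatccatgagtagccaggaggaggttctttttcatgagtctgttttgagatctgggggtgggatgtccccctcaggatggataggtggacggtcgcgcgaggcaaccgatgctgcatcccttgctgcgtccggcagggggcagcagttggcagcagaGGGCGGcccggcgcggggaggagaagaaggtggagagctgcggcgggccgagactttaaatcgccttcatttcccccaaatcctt
Col11a2: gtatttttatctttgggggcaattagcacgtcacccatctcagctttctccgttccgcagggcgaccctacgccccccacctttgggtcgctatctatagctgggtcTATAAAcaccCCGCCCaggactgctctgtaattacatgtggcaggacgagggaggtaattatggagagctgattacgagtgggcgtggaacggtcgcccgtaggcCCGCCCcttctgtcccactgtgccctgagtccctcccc
Col9a2: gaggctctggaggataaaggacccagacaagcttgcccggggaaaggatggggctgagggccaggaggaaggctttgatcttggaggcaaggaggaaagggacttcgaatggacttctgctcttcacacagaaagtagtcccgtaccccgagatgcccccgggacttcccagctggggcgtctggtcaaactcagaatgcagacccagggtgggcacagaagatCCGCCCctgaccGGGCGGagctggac

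Col10a1, the gene of type X collagen, was the 1 cartilage chain with a higher signal. It had 181 with retinoic acid and 30.8 in control, 5.88-fold higher, with 1 probe set and a control signal just above the array's median. From the highest ratio down, it stood at rank 98 of the 11733 measured genes. With the floor raised to the 70th percentile of each array its log2 ratio was a bound of 0.58 in place of 2.56. Its upstream sequence (chr10:34389731-34389980, plus strand) is shown beside those of the chains with lower signals. Capitals mark ACAAAG, the core that SOX proteins bind, and TATAAA.
Col10a1: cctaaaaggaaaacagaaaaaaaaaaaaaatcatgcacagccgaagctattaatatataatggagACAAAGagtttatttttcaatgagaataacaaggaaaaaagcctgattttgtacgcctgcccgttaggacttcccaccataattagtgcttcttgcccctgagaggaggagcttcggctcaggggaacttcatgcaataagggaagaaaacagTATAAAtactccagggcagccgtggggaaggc

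In windows of this length, ACAAAG stood on either strand in 16.5% of all 32851 RefSeq promoters and in 3 of the 36 found for collagens, which cover 33 of the 42 genes. Those 3 were Col10a1, Col3a1 and Col20a1. The hexamer AGGTCA, which retinoid receptors bind as paired repeats, stood in 14.0% of all promoters and in 8 of 36 for collagens. The 8 genes were Col9a1, Col11a1, Col24a1, Col7a1, Col4a4, Col6a5, Col20a1 and Col23a1. The GC box stood in 32.7% of all promoters and 21 of 36, and TATAAA in 12.4% and 5 of 36. Motifs were counted separately and their matches may overlap. A match is a description of these letters in this window.

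The other fibrillar collagens differed less. All 7 were measured, 1 was lower by 2-fold or more and 0 were higher by that much, and the median log2 ratio was −0.19. The 2 chains of type I, the fibril of bone, tendon and skin, had nearly the same ratio. Col1a1 had 5811 with retinoic acid and 7008 in control, 1.21-fold lower, and its second probe set gave −0.30 beside −0.27 on the log2 scale. Col1a2 had 10463 with retinoic acid and 11957 in control, 1.14-fold lower, and both signals were above 8000. Its second probe set, also above 8000, gave a log2 ratio of 0.02, and a far dimmer one, at 144 with retinoic acid and 118 in control, gave 0.29. The direction for Col1a2 therefore turned with the probe set taken.

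Col3a1, the chain of type III fibrils, had 11389 with retinoic acid and 12128 in control, 1.06-fold lower, with both signals above 8000. Its dimmer probe set had 2488 with retinoic acid and 3574 in control, a log2 ratio of −0.52 in place of −0.09. Type V collagen, which sits in the core of type I fibrils, had chains whose brightest probe sets gave unlike ratios. Col5a1 had 3040 with retinoic acid and 5191 in control, 1.71-fold lower, and its dimmer probe sets gave log2 ratios of −1.05 and −1.30 beside −0.77. Col5a2, which neighbours Col3a1 in the genome, had 9095 with retinoic acid and 9683 in control, 1.06-fold lower and above 8000, and its dimmer probe set had 4941 with retinoic acid and 7250 in control, a log2 ratio of −0.55. Col5a3 had 50.5 with retinoic acid and 119 in control, 2.36-fold lower, and its second probe set was below the median on both arrays. Col24a1, a fibrillar chain of low signal here, had 58.4 with retinoic acid and 39.7 in control, 1.47-fold higher.

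**Figure D2:**
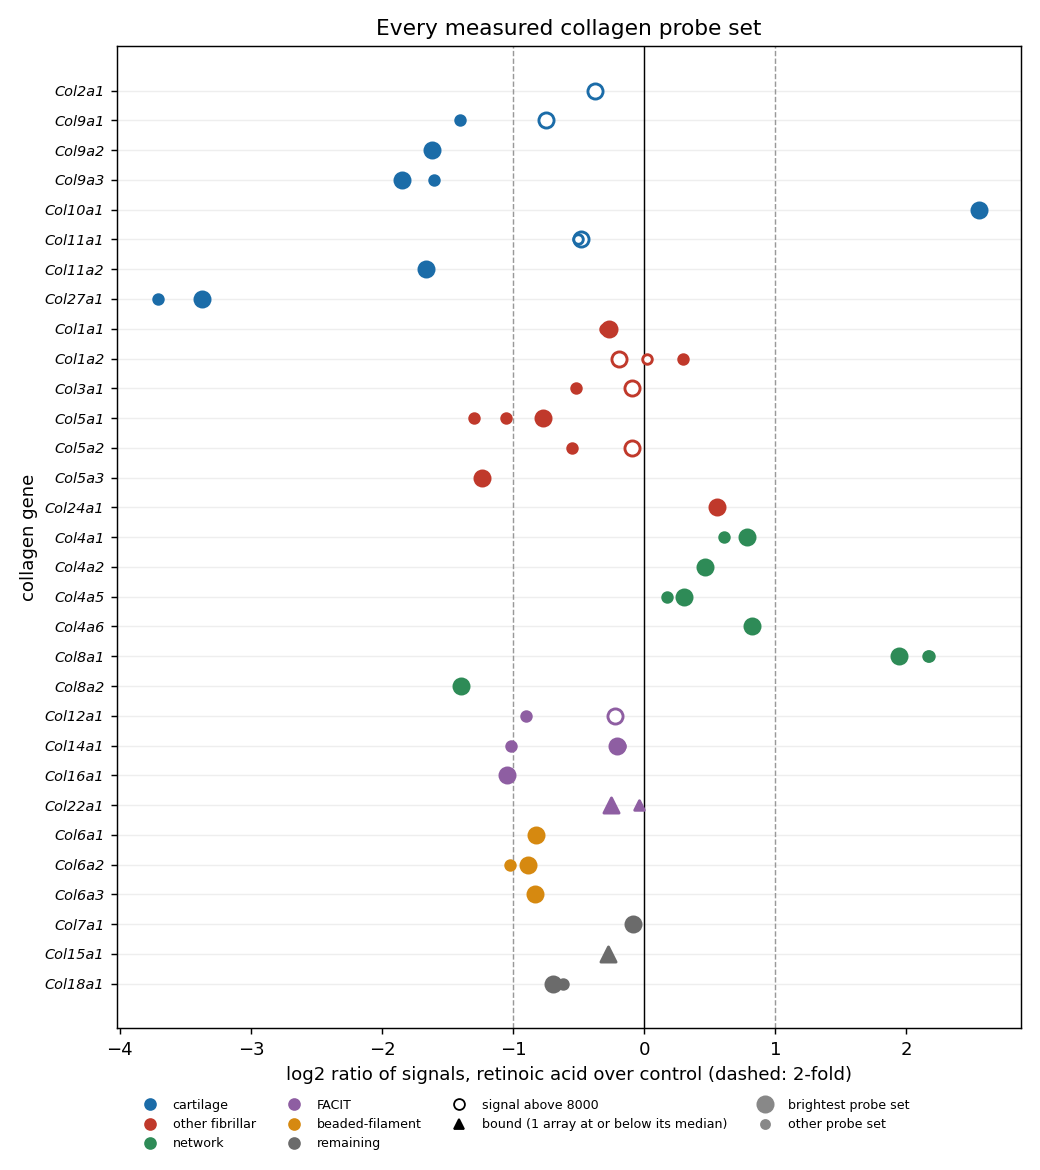
The log2 ratio of signals, retinoic acid over control, for every probe set of a collagen gene above the median on at least 1 array, by gene and class (colours). Large points are the brightest probe set of a gene, small points its others, open points have a signal above 8000, triangles are bounds, and dashed lines mark 2-fold. Probe sets of Col27a1 (−3.37 and −3.71) and Col8a1 (1.94 to 2.18) lie past 2-fold together, while the open points lie between −0.75 and 0.02.

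Network collagens were the class with the highest median, 0.62 on the log2 scale, and 6 of its 8 genes were measured. Of these, 1 was past 2-fold upwards and 1 downwards, and both were chains of type VIII, a short-chain network collagen. Col8a1 had a signal of 2739 with retinoic acid and 714 in control, 3.84-fold higher, and its other probe sets gave log2 ratios of 2.18 and 2.17 beside 1.94. It stood at rank 232 from the highest ratio down. Col8a2 had 306 with retinoic acid and 806 in control, 2.64-fold lower, with 1 probe set. The 2 chains lay 3.34 apart on the log2 scale, the widest gap among the 7 trimer groups compared. Type VIII can be built from either chain.

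The sequences upstream of Col8a1 (chr16:57754738-57754987, minus strand) and Col8a2 (chr4:126286544-126286793, plus strand), from the same RefSeq table, are given to set the pair with opposite ratios side by side. Capitals mark GC boxes on either strand, of which each window holds 4, with a pair in Col8a2 overlapping.
Col8a1: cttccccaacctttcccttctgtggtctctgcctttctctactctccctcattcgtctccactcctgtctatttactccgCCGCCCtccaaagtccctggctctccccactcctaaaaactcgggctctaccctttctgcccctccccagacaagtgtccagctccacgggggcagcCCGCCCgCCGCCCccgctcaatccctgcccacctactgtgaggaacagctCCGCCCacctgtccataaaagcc
Col8a2: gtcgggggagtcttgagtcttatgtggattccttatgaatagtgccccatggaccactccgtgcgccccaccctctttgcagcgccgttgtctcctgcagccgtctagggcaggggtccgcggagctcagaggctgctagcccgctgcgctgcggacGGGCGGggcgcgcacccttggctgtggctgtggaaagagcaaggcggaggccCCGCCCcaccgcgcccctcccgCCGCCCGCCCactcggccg

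Type IV collagen, the network of basement membranes, had 4 measured chains, each with a higher signal with retinoic acid and each under 2-fold. Col4a1 had 505 with retinoic acid and 293 in control, 1.72-fold higher, and its second probe set gave a log2 ratio of 0.61 beside 0.78. Its genomic neighbour and trimer partner Col4a2 had 485 with retinoic acid and 352 in control, 1.38-fold higher. Col4a5 had 684 with retinoic acid and 555 in control, 1.23-fold higher, with a log2 ratio of 0.17 for its second probe set beside 0.30. Col4a6, its neighbour, had 55.9 with retinoic acid and 31.6 in control, 1.77-fold higher from near the array's median. The second probe set of Col4a6 was below the median on both arrays, at 16.3 with retinoic acid and 17.8 in control. Col4a3 and Col4a4, the chains of kidney and some other specialised basement membranes, were below the median on both arrays. Endothelial cells make type IV collagen too, and of 5 endothelial markers Pecam1, Cdh5, Tek and Emcn were below the median on both arrays. Kdr, the fifth, had 36.6 with retinoic acid and 25.4 in control, the control signal being below that array's median. Of the smooth muscle and pericyte markers 4 of 5 were measured, 3 higher and 1 (Cnn1) lower with retinoic acid, Myh11 being below the median on both arrays. The summed signal of all 5 was 8102 with retinoic acid and 5399 in control. Most of it came from Acta2 (4340 with retinoic acid, 3165 in control) and Pdgfrb (3555 with retinoic acid, 2052 in control). The part of these markers in the type IV values was not tested.

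The FACIT collagens outside cartilage had 4 of 6 genes measured, all with lower signals, and a median log2 ratio of −0.24. Col16a1 had 460 with retinoic acid and 952 in control, 2.07-fold lower, just past 2-fold, with 1 probe set of a kind that can match several transcripts of the gene. Col12a1, whose product binds type I fibrils, had 8141 with retinoic acid and 9478 in control, 1.16-fold lower with both signals above 8000, and its dimmer probe set gave 2851 with retinoic acid and 5316 in control, a log2 ratio of −0.90. Col14a1, also a partner of type I fibrils, had 1368 with retinoic acid and 1584 in control, 1.16-fold lower, with log2 ratios of −0.19 and −1.01 for its dimmer probe sets, the second of them at 31.7 with retinoic acid and 64.0 in control. Col22a1 was above the median in control only, at least 1.19-fold lower.

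Beaded-filament chains were lower by nearly the same amount. Col6a1 had 2273 with retinoic acid and 4028 in control, 1.77-fold lower. Col6a2, its neighbour in the genome, had 2759 with retinoic acid and 5107 in control, 1.85-fold lower, and its second probe set gave a log2 ratio of −1.03 beside −0.89. Col6a3 had 1881 with retinoic acid and 3344 in control, 1.78-fold lower. These 3 form the type VI trimer, and their ratios spanned 0.06 on the log2 scale, less than the scatter between probe sets of a gene. The type I chains Col1a1 and Col1a2 spanned 0.08, and the pair Col4a1 and Col4a2 of type IV 0.32. The pair Col5a1 and Col5a2 of type V spanned 0.68, and the 3 type IX chains 1.09. These spans used the brightest probe sets, and those of Col1a2, Col5a2 and Col9a1 were above 8000 and possibly saturated. The probe set of Col5a2 not above 8000 gave −0.55, beside −0.77 for Col5a1. The other beaded-filament genes, Col6a4 and Col6a5, were below the median on both arrays.

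Of the 8 remaining chain genes 3 were measured. Col18a1, a basement membrane chain whose fragment is endostatin, had 68.5 with retinoic acid and 111 in control, 1.62-fold lower, and its second probe set gave a log2 ratio of −0.62 beside −0.69. Col7a1, the anchoring fibril chain of skin, had 47.1 with retinoic acid and 49.9 in control, 1.06-fold lower. Col15a1 was above the median in control only, with 10.5 on the retinoic acid array and 36.0 in control, at least 1.21-fold lower. Below the median on both arrays were Col13a1, Col17a1, Col23a1 and Col25a1, which span the cell membrane, and Col26a1. The FACIT genes Col19a1 and Col20a1 were below it as well. These 11 genes with no fold include Col4a3, at 20.8 with retinoic acid and 0.565 in control.

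Within a collagen gene, dimmer probe sets mostly gave ratios further from 0, most clearly where the brightest probe set was above 8000. For 16 genes with several probe sets above the median on both arrays, the dimmest probe set moved further from 0 than the brightest in 12 (75.0%), against 54.0% of 4993 genes on the whole array. Where the brightest was above 8000, it did so in all 6 collagens, against 82.8% of 58 genes on the whole array. The median excess was 0.45 on the log2 scale for these collagens and 0.15 for the 58 genes. Brightest and dimmest had the same sign in 5 of the 6 collagens and in 49 of the 58 genes. The sign turned for Col1a2, from −0.19 to 0.29, and Col11a1 gave nearly equal ratios of −0.49 and −0.50. Where the brightest was at or below 8000, the dimmest moved further in 6 of 10 collagens (60.0%), against 53.7% of 4935 genes. The median excess there was 0.08 for the collagens and 0.02 for the 4935 genes. The 7 collagen genes above 8000 on at least 1 array were Col1a2, Col2a1, Col3a1, Col5a2, Col9a1, Col11a1 and Col12a1, with 9 such probe sets. Of these genes 0 were past 2-fold in either direction and 6 lay within 1.5-fold. Over all 86 genes that bright, 5.81% were past 2-fold downwards and 6.98% upwards. Among the 24 collagens not above 8000, 7 were past 2-fold downwards (29.2%) and 2 upwards (8.33%), against 4.39% and 6.62% of all 11647 measured genes not above 8000. Whether saturation sets the small ratios of the brightest collagens was not tested.

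**Figure D3:**
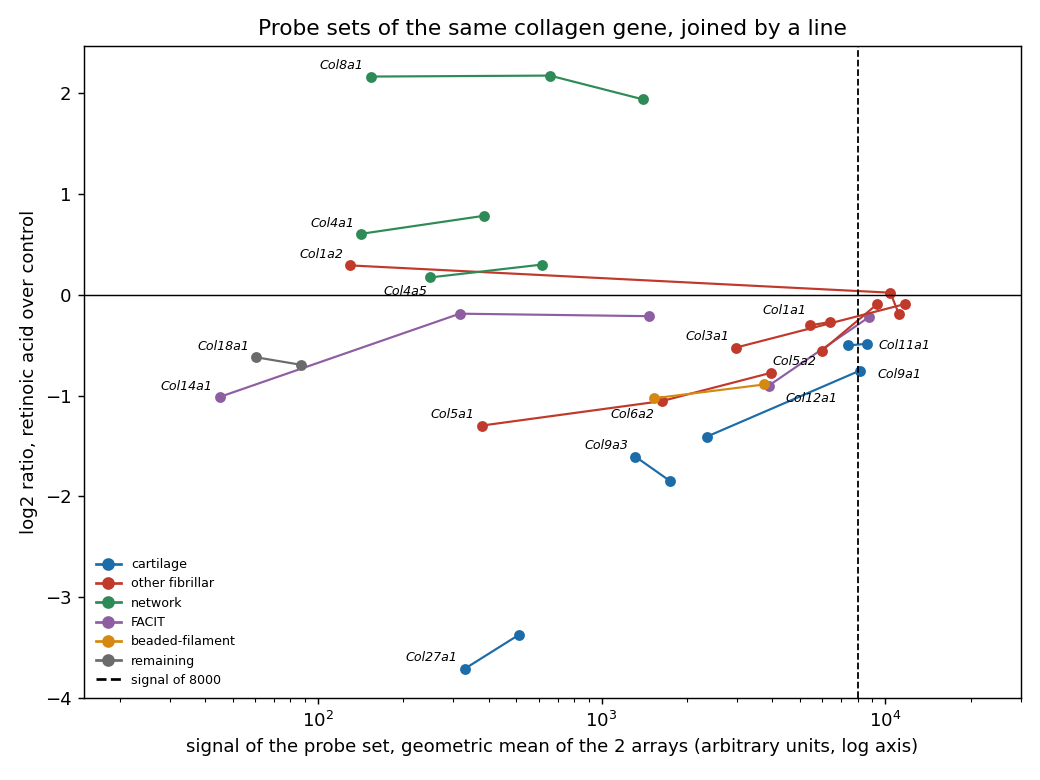
Log2 ratio, retinoic acid over control, against the geometric mean signal of the 2 arrays (log axis) for the 16 collagen genes with several probe sets above the median on both arrays. A line joins the probe sets of 1 gene, colours are classes, and the dashed line marks 8000. The lines of Col9a1, Col5a1, Col3a1, Col5a2 and Col12a1 run towards 0 as the signal grows, whereas that of Col9a3 runs away from it.

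Genes that modify and fold collagen mostly had slightly lower signals. Of 21 measured, 3 were past 2-fold downwards and 0 upwards, with 20 below 0 and a median log2 ratio of −0.32. Over all measured genes 4.40% were past 2-fold downwards and 6.62% upwards, 5754 of 11733 were below 0 and the median was 0.01. These values are the background for this and the next 4 lists. P3h2, a prolyl 3-hydroxylase gene, had 77.6 with retinoic acid and 380 in control, 4.90-fold lower. P4ha3, a prolyl 4-hydroxylase subunit, was 2.68-fold lower (44.0 with retinoic acid and 118 in control), and Colgalt2, which adds sugar to hydroxylysine, at least 2.49-fold lower. Serpinh1, the collagen chaperone, had 8694 with retinoic acid and 9755 in control, 1.12-fold lower and above 8000, and P4hb was 1.25-fold lower.

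Processing and crosslinking genes went both ways, with 3 of 11 measured past 2-fold upwards, 1 downwards and a median of 0.07. Pcolce2, an enhancer of procollagen cleavage, had 94.4 with retinoic acid and 1833 in control, 19.4-fold lower. Tll1, a procollagen C-proteinase gene, was 4.68-fold higher (266 with retinoic acid and 56.7 in control). The crosslinking genes Loxl1 and Tgm2 were 2.91-fold and 31.9-fold higher, and Lox was 1.33-fold lower, from above 8000 in control.

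Among genes that degrade collagen, 4 of 10 measured were past 2-fold upwards and 0 downwards, and the median was 0.72. The gelatin-cleaving protease gene Fap had 2387 with retinoic acid and 397 in control, 6.01-fold higher. Mmp9 was at least 5.15-fold higher. The collagenase gene Mmp13 was 3.07-fold higher, with a signal of 10597 with retinoic acid, above 8000, and 3446 in control. Mmp14, which also cuts fibrillar collagen, had 6574 with retinoic acid and 2905 in control, 2.26-fold higher. Of 6 measured collagen receptors, only Mrc2, which takes up collagen for breakdown, was past 2-fold, 4.02-fold higher (4909 with retinoic acid and 1221 in control). Ddr2 and Itga10 lay within 1.5-fold, at 1.02-fold higher and 1.09-fold lower.

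Regulators of collagen genes went both ways, with 5 of 23 measured past 2-fold downwards, 3 upwards and a median of −0.30. Sox9, which activates several of the cartilage collagen genes, had 94.8 with retinoic acid and 1024 in control, 10.8-fold lower. Sp7, an osteoblast factor, was 3.01-fold lower, and Tgfb2 and Egr1 were 2.77-fold and 2.44-fold higher. Scx, a tendon factor, had 30.8 with retinoic acid and 73.4 in control, but its second probe set had the other sign.

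**Figure D4:**
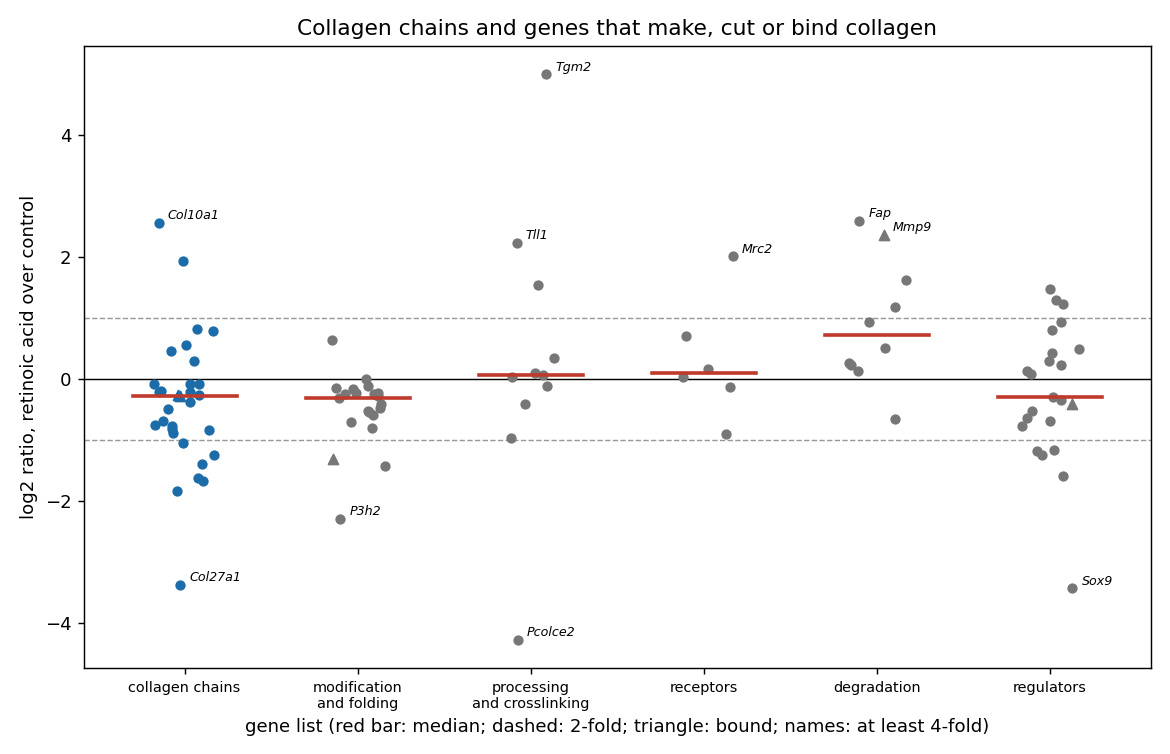
Log2 ratio, retinoic acid over control, of the measured collagen chains (blue) and of the measured genes of 5 lists that make, cut, bind or regulate collagen (grey), with each median as a red bar. Dashed lines mark 2-fold, triangles are bounds, and names mark genes at least 4-fold apart. The median lies at −0.28 for the chains and at 0.72 for degradation genes.

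Markers of the cultured cells were read beside the collagens. Each summed signal takes in every marker of its list on the array, those below the median included. Of 8 chondrocyte markers 7 were measured, all 7 lower with retinoic acid, with a summed signal of 9718 with retinoic acid and 22475 in control; Cilp was below the median on both arrays. To these sums Comp gave 7688 with retinoic acid and 9775 in control, above 8000 and possibly saturated, and Acan 157 with retinoic acid and 5066 in control. Prg4, the lubricin gene that marks the superficial zone, had 1148 with retinoic acid and 1920 in control, and Erg, a factor of articular chondrocytes, 110 with retinoic acid and 150.2 in control. All 4 osteoblast markers on the array were measured, 2 with a higher and 2 with a lower signal with retinoic acid, and sums of 232 with retinoic acid and 352 in control. Macrophage markers, 4 of 5 measured (3 higher, 1 lower), summed to 559 with retinoic acid and 492 in control, with Ptprc below the median on both arrays. Epithelial markers, 2 of 5 measured (both lower), summed to 164 with retinoic acid and 384 in control, with Krt5, Krt14 and Cdh1 below the median on both arrays. Skeletal muscle markers, 3 of 4 measured (1 higher, 2 lower), summed to 163 with retinoic acid and 222 in control, with Myod1 below it. The part of these markers in the collagen values was not tested.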

How the data were processed

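The labels give 2 cultures, 1 with and 1 without retinoic acid, and RNA (100 ng) of each was labelled and put on 1 array, per the labels' protocols. The deposited values are intensities, linear MAS5 signals; the submitters' processing notes name MAS5, and no source used here gives its version, its scaling target or any detection call. Values were used as deposited (trimmed means 193 with retinoic acid, 183 in control), with groups from the labels.

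Probe sets took their genes from the platform's annotation; 34945 had 1 symbol, 932 several and 9160 none, and the last 2 kinds were left out. The Entrez identifiers of all 82 collagen probe sets matched the RefSeq gene table and 0 symbols changed. Signals at or below each array's median were raised to it before ratios were taken. Genes whose bound ran against its own direction have no fold, which leaves 11733 of 11884 genes above the median on at least 1 array. No test was run with 1 array per group. Named genes were all collagens, those of 5 pathway lists past 2-fold (up to 5 each), 10 chosen genes and the cell type markers; 7 listed pathway genes, 2 of the chosen ones among them, were not analysed here. The members, classes and lists were chosen with earlier results of these data known. Promoter sequences and gene order came from RefSeq (GRCm38.p6). The counting steps were tested on simulated data, with changes planted well past 2-fold in genes well above the median. That test does not cover calls near 2-fold or near the median. The alternatives covered the floor, the scaling between arrays, the choice of probe set, saturation and the fold counted. Computation was done in Python 3.11.15. Its packages were pandas 2.3.3 and numpy 2.4.6 for the tables, statsmodels 0.14.6 for the loess fit, scipy 1.17.1 for trimmed means and, for the figures, matplotlib 3.10.9.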

Additional observations from a re-analysis of the deposited data

How the results depend on the processing

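The 6 medians were recomputed under 12 alternatives and kept their sign, and the 2 counts under 14. Of these 100 values 86 moved by less than the scatter between probe sets or, for counts, by at most 1.5 times, those of all 3 scalings among them. With the floor at the 30th percentile or with none, 3 collagens were at least 2-fold higher, Col4a3 being added. With the floor at the 70th percentile 1 collagen was at least 2-fold higher in place of 2, Col10a1 becoming a bound of 0.58. That floor also gave 6 lower in place of 7, Col5a3 being lost. With no floor, 11 were at least 2-fold lower in place of 7, which added Col15a1, Col17a1, Col23a1 and Col25a1, of low signal. The dimmest probe set above the median gave 11 lower as well, with median log2 ratios of −1.51 for cartilage, −0.52 for other fibrillar and −0.96 for FACIT collagens. Leaving out probe sets above 8000 gave −1.64, −0.52 and −0.58 for these classes. It took Col2a1 and Col11a1 out of the cartilage class, so that median covers fewer genes. Probe sets unique to a transcript gave −1.62 for cartilage collagens, with Col2a1 out of the class. With probe sets unique to a transcript 6 collagens were at least 2-fold lower, Col16a1 being lost. Counting at 1.5-fold gave 4 higher and 13 lower, and at 4-fold 1 higher and 1 lower, with no more lower than higher. Of 358 single-gene values, 337 moved by less than the scatter; only the sign of Col1a2 turned, under 3 settings. The causes were not tested. No paired analysis was possible because each group has 1 array.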
